A study of Homo sapiens with 6 samples.

Results

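The transcripts examined here are those of leukocyte adhesion: integrin subunits, the adaptors and kinases that work with integrin tails, and the surface partners ICAM1, ICAM2, ICAM3, PECAM1, CD44 and SELPLG. The 38 genes were listed by symbol, and 36 of the 17687 gene symbols on the array carried one of these names, each on 1 probe set. No probe set was named here for ITGA1 or TLN1, so the alpha1 subunit and talin 1 were not analysed here. The list holds no selectin gene itself. SELPLG encodes a selectin ligand.

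RNA came from Jurkat cells, an immortal human line from a T-cell acute lymphoblastic leukaemia that grows in suspension. All cells, of both groups, were grown with 10% serum and then went without it for 90 min. In the CXCL12 group (n = 3 arrays) they then received the chemokine CXCL12 at 100 ng/ml for 15 min, and in the untreated group (n = 3 arrays) they received none. The labels call the arrays of each group biological replicates but do not say how separate the cultures were, so part of the spread that p-values measure may be technical. A single transformed line stands for T cells here, and the arrays measure transcripts, not surface protein or integrin conformation.

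Integrins are paired alpha and beta chains that cross the membrane and bind matrix proteins or receptors on other cells. On resting lymphocytes they are held in a bent, low-affinity form. A chemokine signal through CXCR4 reaches the small GTPase RAP1, whose effectors bring talin and kindlin to the beta tail and extend the integrin within seconds, a process called inside-out signalling that needs no new transcript. The comparison asked whether the transcripts of this machinery also differed after 15 min.

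Values are log2 signals per probe set, processed by the authors with RMA, robust multi-array averaging, a method that corrects background, puts the arrays on a common scale and combines each set's probes. A difference of 1 on this scale is a factor of 2 in signal. Median signals of the arrays ran from 6.18 to 6.22, and correlations between arrays from 0.979 to 0.991, with untreated replicate 1 the least like the others (mean correlation 0.982, against 0.987 to 0.989 for the other arrays). No detection calls were used, so 2 fixed limits serve as yardsticks: the 25th percentile of all probe sets (4.44), below which a probe set was called dim and not tested, and the 50th percentile (6.19). Probe sets differ in how strongly they bind, so signals are read against these limits and not ranked between genes.

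All 14 T cell marker genes lay above the lower limit and 13 above the upper one. RAG1 was the exception at 4.57. The limits do not mark absence or presence. Of 29 measured markers of B, myeloid, platelet, epithelial, fibroblast and endothelial cells, 21 lay above 4.44. The 8 above 6.19 were CD79A (7.92), CD79B (6.53) and PAX5 (6.40) of B cells, PF4 (6.65) of platelets, KRT8 (7.72) of epithelium, and COL1A1 (6.67), COL1A2 (7.85) and VWF (6.55) of the fibroblast and endothelial list. The 8 dim ones were MS4A1 (3.46) of B cells, LYZ (3.02), FCER1G (4.12) and S100A8 (3.19) of myeloid cells, PPBP (4.42) of platelets, CDH1 (2.84) and EPCAM (3.58) of epithelium, and KDR (3.04) of endothelium. No fibroblast marker was dim. An adhesion gene between the limits is therefore no more readily called expressed than these markers. Nor does a signal above the upper limit by itself show expression, since 8 of these 29 markers reached it.

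Of the 36 measured adhesion genes, 34 lay above the lower limit and were tested, and 24 lay above the upper one. ITGA2, the alpha chain of a collagen receptor, and ITGB4, the beta chain of the epithelial hemidesmosome, were dim. ITGA2 had 3.25, 3.80 and 3.995 in CXCL12 arrays, against 3.93, 4.11 and 3.71 in untreated arrays, where each group's values follow its replicate numbers 1, 2 and 3. ITGB4 had 4.09, 4.48 and 4.36 in CXCL12 arrays, against 4.83, 3.79 and 4.33 in untreated arrays. Both overlapped between the groups.

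**Figure D1:**
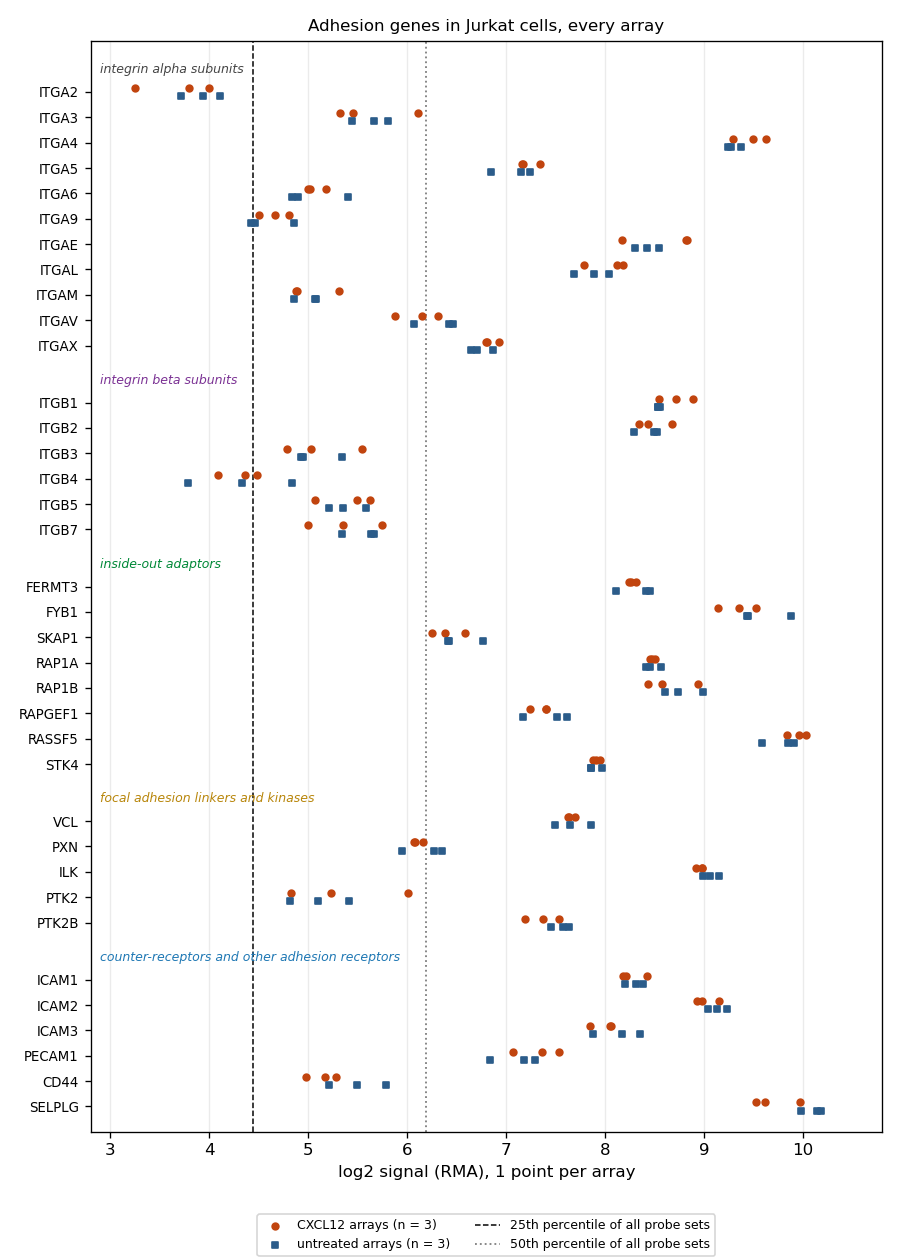
Log2 signal (x axis) of the 36 measured adhesion genes (rows, grouped by role), 1 point per array, CXCL12 arrays as circles drawn above untreated arrays as squares. The dashed line is the 25th percentile of all probe sets (4.44) and the dotted line the 50th (6.19). ITGA2 and ITGB4 have means below the dashed line, and the points of the groups overlap for all genes drawn but ILK and SELPLG.

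No adhesion gene passed the test of CXCL12 against untreated after adjustment over all probe sets. Of the 34 tested, 0 passed an adjusted p of 0.05 (limma, Benjamini-Hochberg over 16086 probe sets), and their adjusted p-values ran from 0.996 to 0.999. Over all probe sets 0.0124% passed, which were the 2 for EGR1 and CD69. Before adjustment, 2 of the 34, SELPLG and CD44, had a limma p under 0.05, both with lower signal in CXCL12 arrays, and 0 with higher signal. Of all probe sets 4.73% did so in either direction, 2.01% with lower and 2.72% with higher signal. CXCL12 arrays were apart from untreated arrays for 2 of the 34 (5.88%), both lower, against 9.54% of all probe sets, 4.48% being lower and 5.05% higher. In either direction, the members' shares at these 2 looser criteria are thus near those of the array as a whole.

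The direction of change was even on the deposited values. Changes, given as CXCL12 minus untreated on the log2 scale, were positive for 17 members and negative for 17, with a median of -0.00239 and quartiles of -0.12 and 0.10. Over all 16086 probe sets the median was 0.00228, with quartiles of -0.09 and 0.10, and 49.3% were negative. The members' positive count moved with the scaling of the arrays. It was 15 of 34 after quantile normalization, 14 after cyclic loess and 12 after median centring. Median signals were slightly higher in CXCL12 arrays (6.205 to 6.215) than in untreated arrays (6.181 to 6.195). For 31 of 34 members the 95% interval stayed inside a change of 1.5-fold in both directions, as it did for 89.9% of all probe sets. The 3 exceptions were PTK2, CD44 and SELPLG. The median half-width of the members' intervals, which are not adjusted for the number of probe sets, was 0.31. Smaller changes could thus not be resolved with 3 arrays a side. Larger ones could still miss the adjusted threshold, as those of SELPLG (-0.40) and CD44 (-0.35) did.

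**Figure D2:**
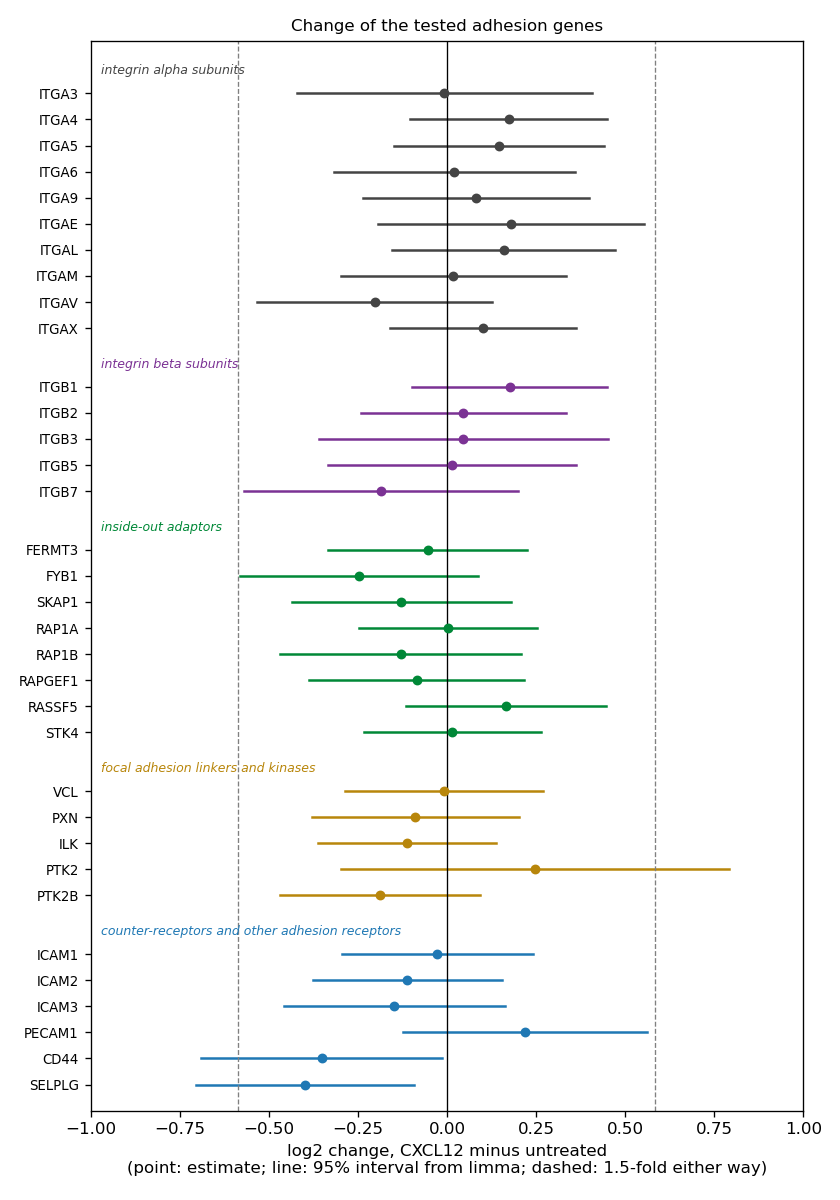
Log2 change of the 34 tested adhesion genes, CXCL12 minus untreated (x axis), as the limma estimate (point) with its 95% interval (line), grouped by role. Dashed lines mark a 1.5-fold change either way. The intervals of CD44 and SELPLG lie below 0, and those of PTK2, CD44 and SELPLG cross a dashed line.

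Among 16 known integrin pairs, 13 had both subunits above the lower limit, and 5 of these had both above the upper limit over all 6 arrays. The 5 were alpha4 beta1 and alpha5 beta1, which bind fibronectin, alphaL beta2, the lymphocyte receptor for ICAMs, alphaX beta2, best known from myeloid cells, and alphaV beta1. The last was marginal, because the alphaV signal averaged 6.11 in CXCL12 arrays and 6.32 in untreated arrays, on either side of the 6.19 limit. By group means the count was therefore 4 pairs in CXCL12 arrays and 5 in untreated arrays, while the ITGAV arrays themselves overlapped. The alpha2 beta1 and alpha6 beta4 pairs had 1 subunit below the lower limit in each group. Because 8 markers of other cell types also lay above the upper limit, passing it does not by itself show that a pair is expressed.

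Pairs above only the lower limit differed in which chain was low. For alpha4 beta7, the gut-homing receptor, and alphaE beta7, which binds E-cadherin, the alpha chains lay above the upper limit in all 6 arrays and ITGB7 lay between the limits in all 6. For alpha3, alpha6 and alpha9 with beta1, and for alphaM with beta2, it was the alpha chain that lay between the limits. For alphaV with beta3 or beta5, the beta chain lay between them in all 6 arrays, and ITGAV lay above the upper limit in 3 of 6 and between the limits in the others. Jurkat cells are known to attach to fibronectin through alpha4 beta1 and alpha5 beta1 and to carry alphaL beta2.

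**Figure D3:**
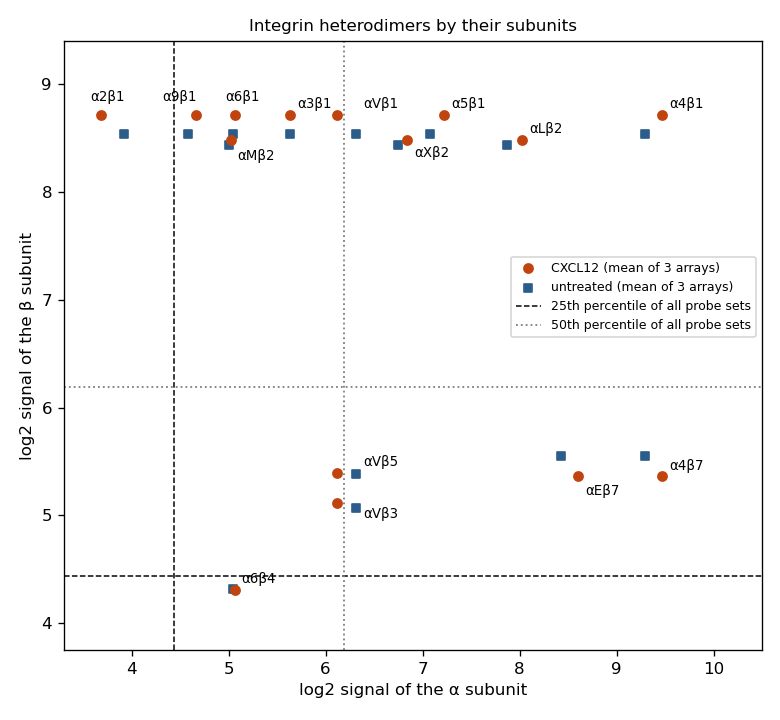
Mean log2 signal of the alpha subunit (x axis) and the beta subunit (y axis) for 15 integrin pairs with both subunits measured, CXCL12 means as circles and untreated means as squares (n = 3 arrays each). Dashed and dotted lines mark 4.44 and 6.19. The alphaV pairs sit on either side of the dotted vertical line in the 2 groups, and the other pairs stay in the same field.

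The chains of alpha4 beta1 and alpha5 beta1 had slightly higher means with CXCL12, within the spread of the arrays. ITGAV, the alpha chain of alphaV beta1, had a lower mean (change -0.20). ITGA4, the alpha4 chain, had 9.50, 9.29 and 9.62 in CXCL12 arrays, against 9.27, 9.24 and 9.38 in untreated arrays. Its partner ITGB1 had 8.71, 8.54 and 8.89 in CXCL12 arrays, against 8.53, 8.55 and 8.54 in untreated arrays. For both genes CXCL12 replicate 3 was the highest array, replicate 1 came next, and replicate 2 fell within the untreated range. The change of ITGA4 was 0.17 (95% interval -0.10 to 0.45, limma adjusted p = 0.996) and that of ITGB1 0.18 (-0.10 to 0.45, limma adjusted p = 0.996). The untreated arrays of ITGB1 lay very close together (SD 0.01, n = 3) and its CXCL12 arrays did not (SD 0.17, n = 3). ITGA5, the alpha5 chain, had 7.16, 7.34 and 7.17 in CXCL12 arrays, against 7.24, 7.15 and 6.84 in untreated arrays. Its order differed from that of ITGB1, and its change was 0.15 (95% interval -0.15 to 0.44), or 0.03 without untreated replicate 3.

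The leukocyte integrin alphaL beta2 showed a similar overlap. ITGAL, the alphaL chain, had 8.18, 7.79 and 8.12 in CXCL12 arrays, against 7.69, 8.04 and 7.89 in untreated arrays, a change of 0.16 (95% interval -0.15 to 0.47). ITGB2, the beta2 chain shared by all leukocyte integrins of this class, had 8.67, 8.34 and 8.44 in CXCL12 arrays, against 8.29, 8.49 and 8.53 in untreated arrays. Its change was 0.05 (95% interval -0.24 to 0.33), and the sign turned without untreated replicate 1 or CXCL12 replicate 1. The other beta2 partners, ITGAM and ITGAX, had changes of 0.02 and 0.10. Their arrays overlapped, ITGAM running from 4.86 to 5.31 and ITGAX from 6.65 to 6.92.

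For alphaE beta7 the change was positive for one chain and negative for the other, neither past the test, and both values moved with the array left out. ITGAE, the alphaE chain, had 8.83, 8.18 and 8.82 in CXCL12 arrays, against 8.31, 8.43 and 8.55 in untreated arrays. CXCL12 replicates 1 and 3 lay above every untreated array and replicate 2 below every one. The change of ITGAE was 0.18 (95% interval -0.19 to 0.55). Without CXCL12 replicate 2 it was 0.39, and without CXCL12 replicate 1 or 3 it was 0.07, and no setting brought it past the adjusted threshold. ITGB7, the beta7 chain, had 5.75, 5.00 and 5.35 in CXCL12 arrays, against 5.34, 5.67 and 5.63 in untreated arrays, a change of -0.19 (95% interval -0.57 to 0.20). Without CXCL12 replicate 2 its change was -0.00246, and without CXCL12 replicate 1 it was -0.38.

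**Figure D4:**
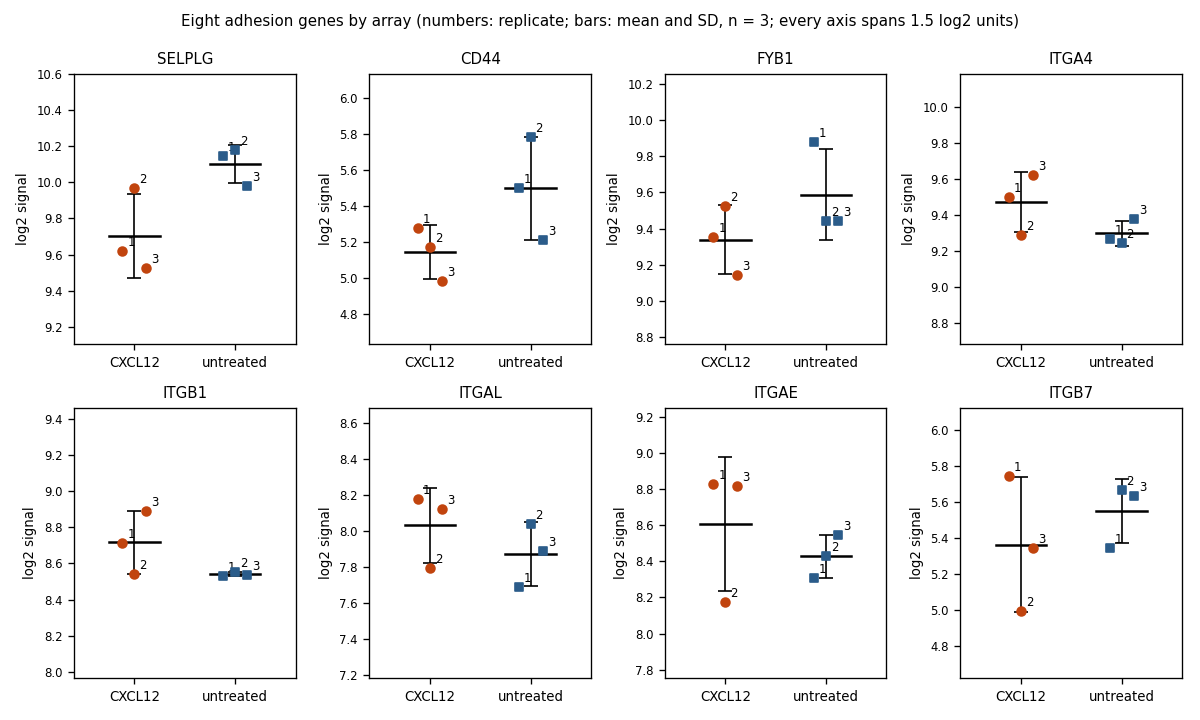
Log2 signal (y axis, each spanning 1.5 units) of SELPLG, CD44, FYB1, ITGA4, ITGB1, ITGAL, ITGAE and ITGB7 in the CXCL12 and untreated arrays, numbered by replicate, with mean and SD (n = 3 each). CXCL12 replicate 2 is the lowest of the CXCL12 arrays for the 5 integrin chains drawn, as it is for 7 of the 15 tested chains, while replicate 1 is the lowest for another 7.

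The remaining integrin chains lay near or between the limits. ITGAV, which pairs with several beta chains, had 5.88, 6.15 and 6.32 in CXCL12 arrays, against 6.42, 6.07 and 6.47 in untreated arrays, a change of -0.20 (95% interval -0.53 to 0.13). ITGA6, a laminin receptor chain, had 5.00, 5.02 and 5.18 in CXCL12 arrays, against 5.40, 4.89 and 4.84 in untreated arrays, a change of 0.02. ITGA3, ITGA9, ITGB3 and ITGB5 had changes from -0.00705 to 0.08, and their arrays ran from 4.42 (ITGA9) to 6.11 (ITGA3) with the groups overlapping for each. As a group, 12 of the 15 tested integrin chains had positive changes and 3 negative ones, none past the threshold. The positive count became 9 with quantile normalization, median centring or cyclic loess and 8 without untreated replicate 3. Their median change was 0.05, where that of all probe sets was 0.00228.

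Adaptors of inside-out signalling were all above the upper limit, and none passed the test. Of 8 measured, 3 changes were positive and 5 negative, and their median was -0.07. RASSF5, the RAP1 effector also called RAPL, had 10.03, 9.84 and 9.96 in CXCL12 arrays, against 9.59, 9.91 and 9.85 in untreated arrays, a change of 0.17 (95% interval -0.11 to 0.44). Only untreated replicate 1 stood clearly below the rest, and without it the change was 0.07. STK4, the kinase MST1 that binds RASSF5, was the steadiest of the tested members, with 7.91, 7.87 and 7.95 in CXCL12 arrays, against 7.86, 7.97 and 7.86 in untreated arrays, a range of 0.12 over the 6 arrays.

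The GTPases themselves were close between the groups. RAP1A had 8.45, 8.48 and 8.51 in CXCL12 arrays, against 8.45, 8.41 and 8.56 in untreated arrays, a change of 0.00228 (95% interval -0.25 to 0.25). RAP1B, the form that predominates in platelets, had 8.94, 8.43 and 8.58 in CXCL12 arrays, against 8.99, 8.61 and 8.74 in untreated arrays, a change of -0.13 (95% interval -0.47 to 0.21). Without untreated replicate 1, its highest array, the change of RAP1B was -0.02, and without CXCL12 replicate 1 it was -0.28. RAPGEF1, an exchange factor that loads RAP1 with GTP, had a change of -0.09, with arrays from 7.18 to 7.62.

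Among the scaffolds, FYB1, the adaptor ADAP that links the T cell receptor to RAP1, had 9.35, 9.53 and 9.14 in CXCL12 arrays, against 9.88, 9.44 and 9.44 in untreated arrays. The high array was untreated replicate 1. The change of FYB1 was -0.25 (95% interval -0.58 to 0.09, limma adjusted p = 0.996), or -0.10 without that array. SKAP1, which binds FYB1, had 6.58, 6.25 and 6.38 in CXCL12 arrays, against 6.77, 6.43 and 6.41 in untreated arrays, a change of -0.13 (95% interval -0.44 to 0.18). Here too untreated replicate 1 was the highest array, and without it the change of SKAP1 was -0.01. FERMT3, the kindlin of blood cells, had 8.26, 8.32 and 8.25 in CXCL12 arrays, against 8.11, 8.42 and 8.45 in untreated arrays, a change of -0.05 (95% interval -0.33 to 0.22).

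The linkers and kinases of adhesion sites gave 1 positive and 4 negative changes among 5 measured, and 0 passed. ILK, a pseudokinase that ties integrin tails to actin, had 8.92, 8.98 and 8.98 in CXCL12 arrays, against 9.16, 9.07 and 8.99 in untreated arrays. Its groups did not overlap, by a narrow margin, and its change was -0.11 (95% interval -0.36 to 0.14, limma adjusted p = 0.996). VCL, which encodes vinculin, had 7.64, 7.63 and 7.70 in CXCL12 arrays, against 7.49, 7.86 and 7.64 in untreated arrays, a change of -0.00885. PXN, which encodes the scaffold paxillin, had 6.07, 6.16 and 6.08 in CXCL12 arrays, against 6.35, 6.27 and 5.95 in untreated arrays, a change of -0.09.

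The focal adhesion kinases PTK2B and PTK2 differed in how evenly they were measured. PTK2B, the kinase PYK2 that is prominent in lymphocytes, had 7.53, 7.38 and 7.19 in CXCL12 arrays, against 7.64, 7.58 and 7.46 in untreated arrays. The groups overlapped through CXCL12 replicate 1, and the change was -0.19 (95% interval -0.47 to 0.09). PTK2, which encodes FAK, had 4.82, 6.01 and 5.23 in CXCL12 arrays, against 4.81, 5.41 and 5.09 in untreated arrays. It had the widest range of the 34 tested members, 1.20, and its change of 0.25 (95% interval -0.30 to 0.79) became -0.08 without CXCL12 replicate 2.

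Counter-receptors and other adhesion receptors had 5 negative and 1 positive change among 6 measured, with a median of -0.13, and 0 passed over all probe sets. SELPLG, the selectin ligand PSGL-1 through which leukocytes roll on vessel walls, had 9.62, 9.97 and 9.53 in CXCL12 arrays, against 10.15, 10.18 and 9.98 in untreated arrays. In such bulk RNA, fewer cells with a transcript and less of it per cell cannot be told apart. Every CXCL12 array lay below every untreated one, with CXCL12 replicate 2 and untreated replicate 3 nearly equal. The signal averaged 9.70 ± 0.23 in CXCL12 arrays and 10.10 ± 0.11 in untreated arrays (SD, n = 3 each). The change was -0.40 (SE 0.14, 95% interval -0.70 to -0.09, limma adjusted p = 0.996), or 0.759 times the untreated signal. With single arrays left out, its change lay between -0.53, when CXCL12 replicate 2 was omitted, and -0.31, when CXCL12 replicate 3 was.

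CD44, a receptor for hyaluronan, lay between the limits, and Jurkat cells are known for little surface CD44. It had 5.28, 5.17 and 4.98 in CXCL12 arrays, against 5.50, 5.78 and 5.21 in untreated arrays. Untreated replicate 3 lay below CXCL12 replicate 1, so the groups overlapped. The change was -0.35 (SE 0.15, 95% interval -0.69 to -0.02, limma adjusted p = 0.996). It was -0.50 with untreated replicate 3 left out and -0.21 with untreated replicate 2 left out.

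The ICAMs, the ligands of alphaL beta2, were all above the upper limit. ICAM1 had 8.42, 8.18 and 8.21 in CXCL12 arrays, against 8.38, 8.32 and 8.20 in untreated arrays, a change of -0.03 (95% interval -0.30 to 0.24). ICAM2 had 8.93, 9.15 and 8.98 in CXCL12 arrays, against 9.13, 9.23 and 9.04 in untreated arrays, a change of -0.11. ICAM3 had 8.05, 8.06 and 7.85 in CXCL12 arrays, against 8.17, 8.35 and 7.88 in untreated arrays, a change of -0.15. The arrays of all 3 genes overlapped between the groups. PECAM1, an adhesion molecule of endothelium, platelets and leukocytes, had 7.36, 7.07 and 7.53 in CXCL12 arrays, against 6.84, 7.18 and 7.29 in untreated arrays, a change of 0.22 (95% interval -0.12 to 0.56), or 0.08 without untreated replicate 1.

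Promoter letters of 3 members are shown because EGR1, whose transcript passed the test on these arrays, encodes a factor that binds GCG-rich sites, and ICAM1 is known from B cells as an EGR1-responsive gene and from many cells as a target of NF-kB. RefSeq (GRCh38.p14) gave promoters for 25 of the 38 listed genes, and the 250 bases before each start were searched on both strands for GCGNGGGCG (EGR), GGAANTTCC (NF-kB), CCGGAAG (ETS) and TGTGGT (RUNX). Each is written 5′ to 3′ on the gene's strand, and capitals mark matches.
ICAM1 (chr19:10270870-10271119, + strand): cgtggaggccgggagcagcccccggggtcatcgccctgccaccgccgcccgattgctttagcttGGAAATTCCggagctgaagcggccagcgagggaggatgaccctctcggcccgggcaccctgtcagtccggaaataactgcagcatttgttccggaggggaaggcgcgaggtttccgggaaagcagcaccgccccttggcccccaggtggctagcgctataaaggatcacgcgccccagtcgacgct
PXN (chr12:120265731-120265980, - strand): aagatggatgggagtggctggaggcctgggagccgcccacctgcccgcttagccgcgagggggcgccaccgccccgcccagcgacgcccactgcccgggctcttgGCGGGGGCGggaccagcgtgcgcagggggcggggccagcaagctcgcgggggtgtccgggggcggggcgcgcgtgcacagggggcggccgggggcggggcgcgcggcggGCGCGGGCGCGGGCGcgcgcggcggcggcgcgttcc
RASSF5 (chr1:206507281-206507530, + strand): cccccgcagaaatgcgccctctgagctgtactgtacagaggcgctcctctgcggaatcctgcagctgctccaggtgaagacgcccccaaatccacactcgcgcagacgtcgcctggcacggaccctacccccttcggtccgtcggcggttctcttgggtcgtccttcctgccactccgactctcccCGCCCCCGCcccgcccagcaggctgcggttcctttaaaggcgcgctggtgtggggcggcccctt

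The EGR motif was found in 2 of the 25 promoters, PXN and RASSF5, and in 8.25% of 27305 promoters searched. PXN held 3 matches, of which the 2 nearest the start overlap each other, and RASSF5 held 1 on the reverse strand. The NF-kB motif was found in ICAM1 alone of the 25, at 186 bases before the start, and in 0.83% of all promoters. With N as its middle base, the search pattern reads the same on both strands, so the match was found on both. The ETS motif was found in ITGB5 and STK4 (8.82% of all) and the RUNX motif in FYB1 (10.92% of all). The changes of these genes were 0.17 for RASSF5, -0.09 for PXN, -0.03 for ICAM1, 0.01 for ITGB5 and STK4, and -0.25 for FYB1, none past the threshold. A match describes letters in a window and is not a binding site. A single promoter per gene was searched, so any other start of a gene was not covered.

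Further genes of adhesion, from 4 other lists, also gave 0 calls. Of 21 further genes of integrin activation that were tested, 11 changes were positive and 10 negative (median 0.00384), and 0 passed. The 3 with the smallest p were RASGRP1, an exchange factor for RAS, at -0.34, RAP1GAP, which switches RAP1 off, at -0.34, and RAPGEF2, a RAP1 exchange factor, at -0.31. The limma adjusted p was 0.996 for each, and the arrays of RASGRP1 and RAP1GAP did not overlap. Groups did not overlap for 6 of these 21 genes, against 9.54% of all probe sets, and 5 of the 6 were lower with CXCL12, against 4.48% of all. The lists that follow had 2 of 19, 0 of 23 and 0 of 4 genes without overlap.

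Of 19 tested genes of focal adhesions, 10 changes were positive and 9 negative, 0 passed, and GIT2 (-0.32), TNS3 (0.28) and PARVA (-0.29) had the smallest p. Of 23 tested leukocyte adhesion receptors, 9 changes were positive, 14 were negative and 0 passed. CD48 (0.48), NCAM1 (-0.35) and CD164 (0.25) had the smallest p, and the arrays of each overlapped. SELP, a selectin of platelets and endothelium, was dim at 3.73 in CXCL12 arrays and 3.62 in untreated arrays. SELE, an endothelial selectin, had 4.51 in CXCL12 arrays and 4.61 in untreated arrays, just above the lower limit. Of 8 integrin subunits outside the list, 4 were dim and 0 lay above the upper limit. Among the 4 tested, 2 changes were positive and 2 negative, with ITGA10 (0.26), ITGA7 (0.09) and ITGA2B (-0.04) having the smallest p.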

How the data were processed

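RNA from 6 Jurkat samples was measured on 6 Affymetrix arrays. The deposited values are log2 signals, 1 per probe set and array, made by the authors with RMA and the Transcriptome Analysis Console, per the submitters' processing notes. Versions, settings and genome build: not given in the sources used here. Of 21448 probe sets, 17709 had 1 gene symbol, 0 several and 3739 none in the supplied platform annotation, which can be old.

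Changes were fitted by limma 3.58.1 under R 4.3.3 with lmFit and eBayes (two-sided, 6 arrays, no covariates). Probe sets whose mean fell below the 25th percentile were not tested, leaving 16086, over which Benjamini-Hochberg adjustment ran. A gene's probe set was the one of highest mean. The fit was tested on simulated data.

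The members and lists were chosen with earlier results of these data known, so lists got counts and medians and no test. By rule, values in every array are given for a fixed set of members and for the 4 of smallest p in each direction. The dim members were added after their values were seen. Of each other list, the 3 genes of smallest p are named. The replicate numbers were not taken as pairs: deviations of same-numbered arrays correlated at -0.19, -0.11 and 0.11. Alternatives are given with their effect in the closing section. The number of arrays limits the precision.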

Additional observations from a re-analysis of the deposited data

How the results depend on the processing

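The count of 0 adhesion genes past the adjusted threshold was 0 in each of the 15 refits, and became 2 (SELPLG and CD44) under an unadjusted p. With the replicate block it was 0 of 34, with 2 at an unadjusted p under 0.05, the median change was -0.00239, and the block changed no call. Omitting single arrays gave median changes from -0.0320 to 0.00714, and 0 to 2 members with an unadjusted p under 0.05. Array weights, limma's trended and robust variance prior, and leaving out the lower 50% of probe sets each left 1 such member, SELPLG. Over all probe sets, the count of 2 became 1 without the filter on dim ones, after median centring and after cyclic loess. It became 3 with the trended and robust prior or with the lower 50% left out, and 4 with array weights. Under an unadjusted p it was 761, and it lay between 1 and 2 when single arrays were omitted.

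Of 500 refits of single members, 47 turned the sign, in 13 members, 0 of them past the threshold. With quantile normalization these were ITGA6 (-0.0201), ITGAM (-0.0195), ITGB5 (-0.0120) and VCL (0.00154). With median centring they were ITGA6 (-0.00112), ITGAM (-0.00355), ITGB5 (-0.00778), RAP1A (-0.0191) and STK4 (-0.00677). With cyclic loess they were ITGA6 (-0.0138), ITGAM (-0.0161) and ITGB5 (-0.0188), and with array weights ITGB5 (-0.0754), RAP1A (-0.0184) and ICAM1 (0.0303). When single arrays were omitted, ITGA3 lay between -0.248 and 0.148, ITGA6 between -0.0825 and 0.199, ITGAM between -0.126 and 0.0915, ITGB2 between -0.0496 and 0.117, ITGB3 between -0.166 and 0.210, ITGB5 between -0.102 and 0.177, RAP1A between -0.0297 and 0.0457, STK4 between -0.00551 and 0.0532, VCL between -0.0956 and 0.0886, ICAM1 between -0.102 and 0.0181, PTK2 between -0.0821 and 0.511, FERMT3 between -0.161 and 0.00754 and RAPGEF1 between -0.216 and 0.00656. Counting turned signs, omission of some single array moved the change of 33 of 34 members by over 1.5 times, SELPLG being the exception. The cause of these moves was not tested. The ratio is to a member's own change, so small changes pass it readily, and SELPLG had the largest change. Its unadjusted limma p was under 0.05 in 13 of 15 refits and reached 0.072. For CD44 the unadjusted limma p was under 0.05 in 8 of 14 refits and reached 0.203, without untreated replicate 2. Leaving out the lower 50% of probe sets left 24 members to test. No member had 2 probe sets, so averaging them changed no member's value.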
